A study of Mus musculus with 13 samples.

Results

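Ribosomal protein genes have left many named copies in the mouse genome, and 198 of these pseudogenes were followed here through the last step of oocyte maturation. They are the genes whose symbol starts with Rpl or Rps and holds "-ps", with at least 10 counts in at least 3 of the 13 libraries. The deposited table lists 300 such symbols among its 54232 genes. The other 102 named copies stayed below that rule, and 29 of them had no count in any library. The copies were thus chosen by their counts, and one can enter through GV oocytes alone. At its edge, Rpl36-ps1 entered with 10 or more counts in exactly 3 libraries, while Rpl12-ps1 and Rps16-ps3 reached 10 counts in 2 libraries and were left out. Of the 198, 113 are copies of large subunit (Rpl) genes and 85 of small subunit (Rps) genes. Each was set beside its parent, the gene named before "-ps", which gave 55 parents. In 120 of the 198, all 13 libraries held at least 10 counts.

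The libraries are pools of 25 mouse oocytes or eggs, and the groups cross maturation stage with genotype. Germinal vesicle (GV) oocytes are fully grown, arrested in meiotic prophase and were collected in 3-isobutyl-1-methyl-xanthine (IBMX), which holds the arrest; metaphase II (MII) eggs were collected 12 to 14 hours after hCG, the hormone injection that triggers ovulation. The strain label is C57BL6/J for both genotypes, while the protocol names superovulated C57Bl6/J or C57BL/6NCrl females without saying which gave which pool. WT stands for wild type, and Null for mice in which Cas9 deleted the promoter of the long noncoding RNA gene Sirena1, a line bred to C57BL/6NCrl for some generations. There were 3 GV WT, 3 GV Null, 3 MII WT and 4 MII Null libraries. Nothing in the labels ties a pool to one animal, so p-values measure the spread between pools.

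Ribosomal proteins are the protein part of the small and large ribosomal subunits, and their mRNAs are among the most abundant of growing cells. Most of their pseudogenes are processed copies: an mRNA was reverse transcribed and inserted elsewhere, without introns and usually without a promoter of its own. Such a copy can resemble the parent so closely that a short read fits both places. In mouse oocytes, which have a large store of maternal mRNA, some pseudogene transcripts are also known to pair with parental mRNA and feed endogenous small interfering RNAs. Fully grown oocytes stop transcription, and part of the stored mRNA is lost or loses its poly(A) tail during maturation.

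The libraries held 30867614 to 41285507 counts each. A count of 3, used as the detection limit, equals 0.0727 to 0.0972 CPM (counts scaled to library size) per library and covers counting error alone. Sirena1, listed as C86187, had 3150 to 4382 CPM in the WT libraries and 26.1 to 42.1 CPM in the Null libraries, so the labels and the targeted gene go together. The 10 oocyte markers summed to 9460 to 15686 CPM. The 23 markers of cumulus and granulosa cells, which surround the oocyte, summed to 107 to 142 CPM in GV WT and 94.7 to 130 CPM in the MII libraries. Most of these sums came from Nr5a2 (53.0 to 88.7 CPM over all libraries) and Cyp19a1 (26.4 to 36.5 CPM). Like sums thus do not show like amounts of the other markers. In GV Null they summed to 106, 701 and 283 CPM in replicates 1, 2 and 3. Those pools, GV Null replicates 2 and 3, therefore stand apart before any pseudogene is considered, and so does MII Null replicate 4, as described with Rps13 below.

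The copies are spread over 20 chromosomes. RefSeq (assembly GRCm38.p6) gave a position for 197 of them, every copy except Rpl23a-ps14. It classes 188 as pseudogenes, 7 as transcribed pseudogenes and 2, Rpl31-ps12 and Rpl34-ps1, as protein coding. Their median length was 527 bp (281 to 6749 bp). The span of another gene encloses 63 of them, as Nup93 does Rpl10-ps5, Taf1c does Rps13-ps4 and Chmp1a does Rps12-ps9. On chromosome X lie 26 copies, and 13 of those are Rps12 copies within 2702 kb at chrX:123284984-125987385. Reads of such a copy and of its host cannot be told apart where the strand setting of the counting is unknown, and that setting is not given in the sources used here.

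Together the pseudogenes took a visible part of every library. Levels are CPM scaled with TMM factors (trimmed mean of M values) and are not per length. Summed over the 198, the level reached 2971, 2793 and 3211 CPM in GV WT and 3028, 3495 and 3544 CPM in GV Null. In MII WT it was 980, 931 and 806 CPM, and in MII Null 1183, 827, 790 and 1022 CPM. Every GV library lay above every MII library. The summed level of the 55 parents was 3534 to 4445 CPM in GV oocytes and 930 to 1373 CPM in MII eggs, again without overlap. As a share of all counts in a library, the pseudogenes made up 0.322% ± 0.019 (SD, n = 3) in GV WT and 0.0848% ± 0.0086 (SD, n = 3) in MII WT. The Null groups had 0.366% ± 0.041 (SD, n = 3) and 0.0892% ± 0.0185 (SD, n = 4).

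The division of counts between copies and parents moved far less. Of the counts of pseudogenes and parents together, the pseudogenes held 44.1% ± 0.381 (SD, n = 3) in GV WT and 44.4% ± 0.0213 (SD, n = 3) in GV Null. They held 46.1% ± 0.960 (SD, n = 3) in MII WT and 46.2% ± 0.209 (SD, n = 4) in MII Null. The MII libraries (45.1% to 47.0%) all lay slightly above the GV libraries (43.7% to 44.5%). How many of those reads came from a pseudogene's own RNA was not tested, since the treatment of reads that map to several places is not given in the sources used here. In 18 of the 55 families the copies together had more counts than the parent in GV WT. The 22 Rps12 copies summed to 358% of the counts of Rps12 there, the 15 Rpl31 copies to 238% of Rpl31, and the 3 Rpl36a copies to 254% of Rpl36a.

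Single copies ranged from barely detected to well expressed. In GV WT, 90 copies averaged at least 10 CPM, 89 lay between 1 and 10 CPM and 19 below 1 CPM. The median copy had 8.83 CPM in GV WT and 1.06 CPM in MII WT. In 170 of the 198 all GV libraries lay above all MII libraries, and in 0 was the order reversed. Of all 20143 genes tested, 19% had all GV libraries above all MII libraries and 15.4% the reverse. Those genes passed a different filter. Because a copy can enter through GV oocytes alone, part of the 170 can follow from the count rule. Copies with nearly the same counts are each included. By mean CPM over all libraries the top 6 were Rpl10-ps3, Rpl5-ps1, Rpl10-ps1, Rpl10-ps5, Rpl10-ps6 and Rpl7a-ps11.

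Maturation in WT, MII eggs against GV oocytes, asks which transcripts change their share of the library as the oocyte becomes an egg. By edgeR's quasi-likelihood test with Benjamini-Hochberg adjustment, 177 of 197 tested pseudogenes were lower in MII, 0 were higher and 20 did not pass. Of all 20143 genes tested, 22.8% were called lower and 19.9% higher (42.7% in all). The pseudogenes' median log2 fold change was -2.36, against 0.01 over all genes. Among the 120 copies with counts in every library, which did not enter through GV oocytes alone, 107 were lower and 13 did not pass, with a median of -1.76. Of the lower copies, 112 fell more than 4-fold and 59 more than 16-fold. The Rpl copies were lower in 104 of 112 and the Rps copies in 73 of 85, with medians of -2.03 and -4.50. Of the 85 Rps copies, 22 are copies of Rps12 (-5.06 to -4.11), and 14 of those had counts nearly equal to another Rps12 copy. Copies of the same parent can share reads and are not separate observations. The difference between the Rpl and Rps medians was not tested. CPM are shares of a library, so less RNA per oocyte and more of other RNAs cannot be told apart.

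The parents did the same. In WT 51 of 55 parents were lower, 0 were higher, and their median log2 fold change was -2.23. Of the other 25 genes on a list of cytosolic ribosomal proteins, which have no copy among the 198, 23 were lower; Rpl4 was the 1 called higher, by 0.20 (SE 0.07, adjusted p = 0.0403). By the same count rule 334 pseudogenes of other parents were tested, of which 56 were lower and 52 higher, with a median of 0.19. These medians and counts describe the lists, and the difference between them was not tested.

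Among copies with at least 2 CPM in GV WT, the Rps13 copies fell furthest. Rps13 encodes a protein of the small subunit that binds ribosomal RNA early in assembly. Rps13-ps1 (chr8:87047694-87048215) had 39.6, 37.9 and 48.5 CPM in GV WT and 0.430, 0.276 and 0.381 CPM in MII WT. The groups are far apart, with a log2 fold change of -6.84 (SE 0.80, adjusted p = 8.24e-05). Rps13-ps2 (chr7:88530403-88530924) went from 43.2, 41.3 and 52.4 CPM to 0.464, 0.310 and 0.349 CPM, a log2 fold change of -6.91 (SE 0.82, adjusted p = 9.3e-05). Rps13-ps4 and Rps13-ps5 fell by 6.59 and 6.64 on the log2 scale (adjusted p = 7.95e-05 and 4.42e-05). Rps13 itself went from 94.5, 92.1 and 121 CPM to 1.76, 1.07 and 1.14 CPM, a log2 fold change of -6.27 (SE 0.83, adjusted p = 2e-04). All 4 copies and the parent thus lost nearly all of their share of the library.

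Rpl39-ps (chr15:102634982-102635340) is the single copy of Rpl39, whose short protein lines the tunnel through which the new peptide leaves the ribosome. It had 34.6, 27.4 and 40.9 CPM in GV WT and 0.364, 0.414 and 0.413 CPM in MII WT, a log2 fold change of -6.42 (SE 0.86, adjusted p = 0.000213). Rpl39 went from 115, 96.7 and 137 CPM to 1.36, 1.34 and 1.02 CPM, a log2 fold change of -6.55 (SE 0.88, adjusted p = 0.000232). The difference between copy and parent was 0.13 on the log2 scale.

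Rps27a-ps2, Rpl38-ps2 and Rps19-ps7 also fell far. Rps27a encodes a ribosomal protein fused to ubiquitin, Rpl38 is known for a skeletal patterning mutant, and RPS19 is the gene most often mutated in Diamond-Blackfan anaemia. Rps27a-ps2 had 5.92 to 6.11 CPM in GV WT and 0.0662 to 0.103 CPM in MII WT, a fall of 65.3-fold (adjusted p = 3.52e-06). Rpl38-ps2 had 9.47 to 12.4 CPM and 0.127 to 0.276 CPM, a fall of 52.9-fold (adjusted p = 1.43e-08). Rps19-ps7 was left with 2 counts over the 3 MII WT libraries against 301 in GV WT, a ratio of 110 with a 95% counting interval of 30.1 to 909. In these low MII values single reads decide the fold.

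**Figure D1:**
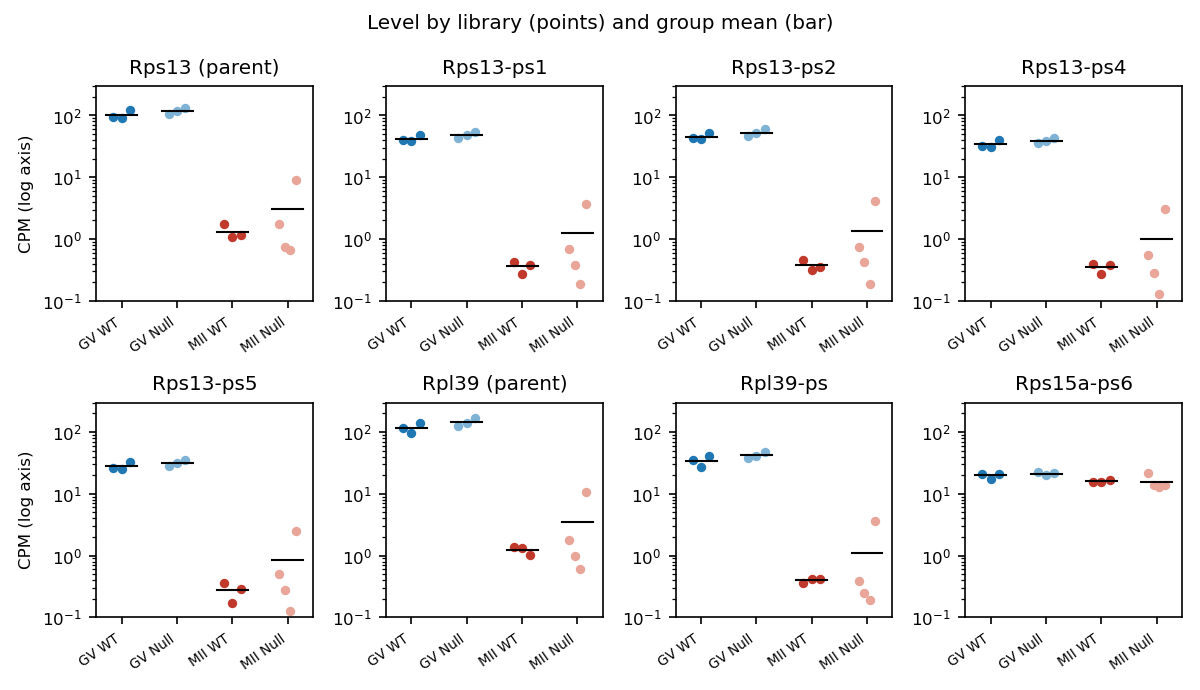
Level in CPM (log axis) of Rps13, its copies Rps13-ps1, -ps2, -ps4 and -ps5, Rpl39, Rpl39-ps and Rps15a-ps6. Points are the 3 or 4 libraries of each group and bars are group means: every copy of Rps13 and Rpl39 is far lower in MII, MII Null replicate 4 (for Rps13-ps1, 3.76 CPM) lies above the other MII libraries, and Rps15a-ps6 stays between 12.9 and 22.4 CPM.

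In most of the larger families every copy was lower, though not always at a depth near that of the parent. Copy minus parent was -1.25 for Rpl21-ps3, -1.52 for Rpsa-ps11, -1.36 for Rps19-ps7 and -1.31 for Rps6-ps2 on the log2 scale. Rps12 encodes a small subunit protein, and all 22 of its copies were lower in WT, with log2 fold changes from -5.06 to -4.11 against -4.34 for Rps12. All 12 Rpl21 copies were lower (-3.67 to -2.35, parent -2.42), as were all 8 Rpl17 copies (-1.84 to -0.93, parent -1.25) and all 8 copies of Rpsa, also known as the laminin receptor (-7.00 to -4.92, parent -5.47). The lowest of the last, Rpsa-ps11, had 1 count left in MII WT. All 7 Rps19 copies (-6.55 to -4.76, parent -5.19) and all 4 Rps6 copies (-2.14 to -0.95, parent -0.83) were lower too. So were 6 of 6 for each of Rpl30, Rpl35a and Rpl7a. Of 15 Rpl31 copies 13 were lower, of 9 Rps2 copies 8 and of 6 Rpl19 copies 5.

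Rps15a stood at the other end. None of its 7 copies passed the test in WT, with log2 fold changes from -0.41 to 0.57. At an unadjusted p under 0.05 there was 1, Rps15a-ps5, and DESeq2 called 0 of them. Among all 20143 genes tested, 9987 had an unadjusted p under 0.05 in edgeR's quasi-likelihood test. Rps15a-ps6 (chr11:6172508-6173331, inside Nudcd3) had 21.2, 17.3 and 21.1 CPM in GV WT and 15.7, 15.3 and 16.8 CPM in MII WT. All MII values were the lower ones, yet the log2 fold change of -0.32 (SE 0.16) had an adjusted p of 0.121. Rps15a had 58.6 to 73.9 CPM and 55.6 to 63.0 CPM, a log2 fold change of -0.20 (SE 0.17, adjusted p = 0.353). In Null, 3 of the 7 copies passed as lower (Rps15a-ps5, -ps6 and -ps7, by 0.43 to 0.52 on the log2 scale). The copies of Rpl29, Rpl29-ps2 and Rpl29-ps5, also did not pass in either genotype, with 0.30 and -0.36 in WT beside 0.06 for Rpl29.

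The Rpl10 copies, with high CPM, moved little. Rpl10 is one of the last proteins to join the large subunit. Rpl10-ps3 (chr9:50344226-50344984) had 83.4, 77 and 91.4 CPM in GV WT and 59.8, 60.6 and 39.8 CPM in MII WT. The groups do not overlap, and the log2 fold change was -0.65 (SE 0.21, adjusted p = 0.0215). Rpl10-ps1, -ps5 and -ps6 fell by 0.62, 0.62 and 0.63 on the log2 scale (adjusted p = 0.0268, 0.0273 and 0.0229), Rpl10-ps2 gave -0.37 (adjusted p = 0.192) and Rpl10 gave -0.55 (adjusted p = 0.0651). These 4 calls ended without GV WT replicate 3 (adjusted p = 0.0696 to 0.0864), without MII WT replicate 3 (0.071 to 0.0942) and, for Rpl10-ps1 and Rpl10-ps5, without GV WT replicate 1 (0.0568 and 0.0604). Rpl5-ps1 (chr1:14865018-14866019), a copy of the gene whose protein carries a small ribosomal RNA into the large subunit, fell further. It had 132, 132 and 136 CPM in GV WT and 20.4, 17.2 and 19.0 CPM in MII WT, a log2 fold change of -2.82 (SE 0.15, adjusted p = 8.86e-10). Rpl7a-ps11 had 62.0 to 70.3 CPM and 20.7 to 40.6 CPM, and passed as lower (adjusted p = 0.00184).

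The start regions of a few parents are shown because the parents, with their copies, differ so much in how far they fell. Ribosomal protein mRNAs are known for a run of pyrimidines (C or T in the DNA) at the 5′ end, through which growth signals act on their translation. The sequences are from RefSeq (GRCm38.p6) and run from 40 bases before the annotated start to 20 bases from it onward, on the gene's strand. Capitals mark the longest run of C and T that touches the 5 bases on either side of the start. Longer runs further from the start, as in Rpl39, Rps15a and Rpl31 below, were neither marked nor counted. How near the annotated starts lie to the true ones was not tested. Of the 198 copies, only Rpl31-ps12 had an entry in the RefSeq table of start regions. The lines give Rpl39 (chrX:37085203-37085262, minus strand), Rps15a (chr7:118116128-118116187, minus strand), Rpl31 (chr1:39367811-39367870, plus strand) and Rpl31-ps12 (chr16:16820177-16820236, minus strand).
Rpl39: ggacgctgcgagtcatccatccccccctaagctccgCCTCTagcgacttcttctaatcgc
Rps15a: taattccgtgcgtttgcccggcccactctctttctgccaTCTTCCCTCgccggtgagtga
Rpl31: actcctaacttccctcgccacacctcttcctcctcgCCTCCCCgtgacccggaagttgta
Rpl31-ps12: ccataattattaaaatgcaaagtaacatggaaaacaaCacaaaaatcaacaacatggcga
Rpl39, which fell among the most, and Rps15a, which did not pass, both have such a run, of 5 and 9 bases. At the starts of Rps13 and Rps12, not shown, which fell by 6.27 and 4.34 on the log2 scale, the run by this rule was 2 bases in each. Both also have a longer run of C and T within the 20 bases from the start onward, outside the marked zone. The rule thus does not show that these mRNAs lack such a run. A run of at least 5 bases was present in 25 of the 40 parents with an entry (62.5%) and in 9493 of 27025 genes (35.1%). Rpl31-ps12 has no run longer than 1 base there, and its window of 300 bases shares at most 12 bases in a row with that of Rpl31. Its level was 16.3, 15.5 and 16.5 CPM in GV WT and 8.61, 7.38 and 8.45 CPM in MII WT. That is a log2 fold change of -0.98 (SE 0.17, edgeR adjusted p = 0.000137) beside -0.83 for Rpl31. Copy and parent can be counted from the same reads, so the 2 values need not be separate. Whether the start regions bear on the fall was not tested.

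Set pair by pair, copies and parents moved alike in WT. Of 197 pairs, copy and parent were both lower in 172, the copy alone in 5, the parent alone in 10 and neither in 10, and in 0 did they move in opposite directions past the threshold. The median difference of log2 fold change, copy minus parent, was -0.11 with quartiles of -0.44 and 0.11. In 136 pairs (69.0%) it was within 0.5, and in 20 it was beyond 1. In Null both were lower in 179 of 197 pairs, 158 (80.2%) were within 0.5 and 18 beyond 1. Because a copy and its parent can be counted from the same reads, this likeness is a description and was not tested.

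**Figure D2:**
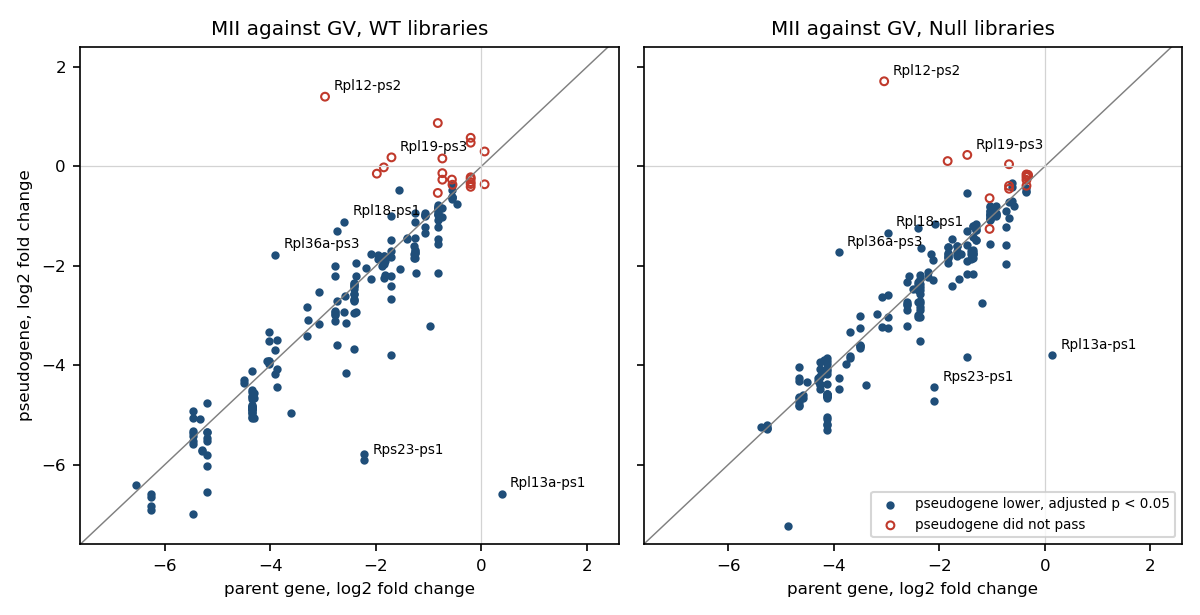
Log2 fold change of MII against GV for each pseudogene (vertical axis) and its parent (horizontal axis) in WT and Null libraries, with the line of equal change. Filled points passed the test as lower (177 in WT, 183 in Null) and open points did not pass; most lie near the line, and the labelled copies depart from it.

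The same was seen library by library. The log2 ratio of a copy's counts to its parent's, with 0.5 counts added to each, had a median SD of 0.08 over the 6 GV libraries and 0.26 over all 13, while the copies' own log2 levels had a median SD of 1.36. The mean ratio shifted by less than 0.5 between stages in 154 of 198 pairs (77.8%). In 58 pairs the GV and MII ratios did not overlap, and the copy's side was lower in MII in 41 of them and higher in 17. Among other named pseudogenes with a parent in the table, 17.4% of 236 pairs did not overlap.

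A few copies fell much less than their parents. Rpl36a-ps3 (chr6:136488735-136489200) is a copy of a large subunit gene and lies inside the noncoding gene Gm44140, which had 0.997 CPM in GV WT and 1.30 CPM in MII WT. The copy had 63.8, 55.9 and 62.2 CPM in GV WT and 20.5, 18.3 and 14.3 CPM in MII WT, a log2 fold change of -1.78 (SE 0.21, adjusted p = 1.77e-05). Rpl36a fell from 34.7, 27 and 35.1 CPM to 2.48, 1.83 and 2.13 CPM, by 3.91 on the log2 scale (SE 0.31, adjusted p = 3.56e-07). The copy's counts rose from 188% of the parent's counts in GV WT to 822% in MII WT. In Null the shares were 191% and 867%, so both genotypes show the same departure.

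Rpl19-ps3 (chr14:49112131-49112830) did not pass the test in either genotype. It had 11.3, 8.92 and 9.75 CPM in GV WT and 10.1, 9.06 and 14.8 CPM in MII WT, with overlap and a log2 fold change of 0.18 (SE 0.17, adjusted p = 0.41). Without MII WT replicate 3 the value was -0.06. Rpl19, a large subunit gene, fell by 1.71 on the log2 scale (SE 0.13, adjusted p = 6.94e-09), and the copy's counts went from 33.9% of the parent's to 126%.

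Rpl18-ps1 (chr1:60900862-60901464), from another large subunit gene, nearly equalled its parent in GV WT counts (104%) and exceeded it in MII WT (293%). It had 46.1, 44.0 and 51.2 CPM and then 22.4, 24.2 and 18.7 CPM, a log2 fold change of -1.11 (SE 0.19, adjusted p = 0.000206) beside -2.60 for Rpl18. Rpl27-ps2 (chr11:101939459-101939943) had 2.28 to 2.37 CPM and then 0.861 to 1.02 CPM, a log2 fold change of -1.31 (adjusted p = 0.0024) beside -2.75 for Rpl27. Both held their ratio apart between stages in all 13 libraries.

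Other copies fell further than their parents. Rps6 encodes a small subunit protein known for its phosphorylation in response to growth signals. Rps6-ps2 (chr8:88806360-88807174) had 3.05, 3.23 and 3.52 CPM in GV WT and 0.497, 0.793 and 0.921 CPM in MII WT, a log2 fold change of -2.14 (SE 0.26, adjusted p = 2.29e-06) beside -0.83 for Rps6. Its counts were 5.30% of those of Rps6 in GV WT and 2.14% in MII WT. Rps24-ps2 (chr3:3791860-3792368) fell by 2.67 on the log2 scale (adjusted p = 3.46e-08) and Rps24, a small subunit gene, by 1.71. Rpl7-ps7 (chr5:82336847-82337717) fell by 4.97 (adjusted p = 6.29e-05) and Rpl7, of the large subunit, by 3.62; without MII WT replicate 2, in which Rpl7-ps7 had 0.310 CPM against 0.0331 and 0.0953 CPM, the copy's value was -6.08. Rps19-ps7 had 15.2% of the counts of Rps19 in GV WT and 5.13% in MII WT, but its ratios overlapped between the stages.

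**Figure D3:**
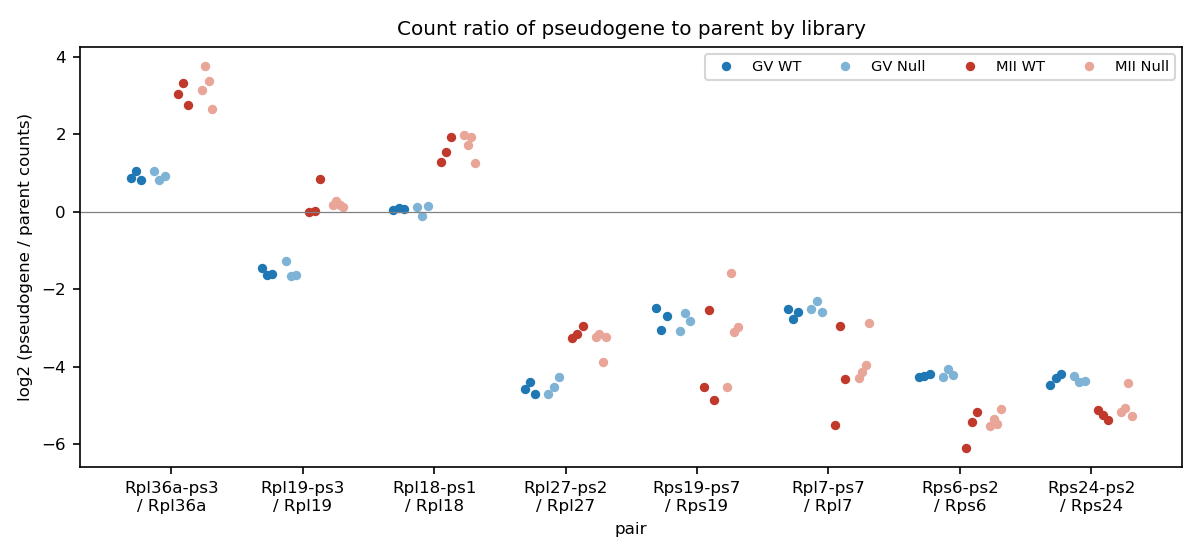
Log2 ratio of a copy's counts to its parent's counts in each library, coloured by group, for the 4 copies that fell least and the 4 that fell most relative to the parent in WT, among copies with at least 2 CPM in the higher group. Rpl36a-ps3, Rpl19-ps3, Rpl18-ps1 and Rpl27-ps2 have higher ratios in every MII library than in any GV library, Rps6-ps2 and Rpl7-ps7 lower ones, and Rps19-ps7 and Rps24-ps2 overlap.

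Of the 20 copies that departed by more than 1 in WT, 9 lay above and 11 below the parent, and 12 had under 2 CPM in GV WT. The sign was the same in Null for 19, the exception being Rpl31-ps18, and 14 were beyond 1 there too. Among the low ones, Rps23-ps1 and Rps23-ps2 had 1 count each in MII WT against 109 and 101 in GV WT, ratios of 79.3 (95% counting interval 13.9 to 3161) and 73.5 (12.9 to 2932), while Rps23, a protein at the decoding site, fell by 2.23 on the log2 scale. Rpl13a-ps1 had 42 counts in GV WT and 0 in MII WT, at least 10.2-fold lower against a floor of 3 counts over the group. Rpl13a itself did not pass (0.38, adjusted p = 0.156). Rpl12-ps2 gave the highest fitted value, 1.40, from 0.0501 to 0.269 CPM in GV WT and 0.127 to 0.655 CPM in MII WT, which overlap (adjusted p = 0.182). Restricted to the 163 pairs with at least 2 CPM for the copy in the higher WT group, 124 lay within 0.5 and 8 beyond 1. Copies inside another gene departed in 4 of 63 pairs (6.35%) and the others in 16 of 134 (11.9%).

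Some copies had nearly the same counts. In 6 groups, holding 21 copies, the counts of each copy lay within 5% or 3 counts of those of at least 1 other copy of its group in every library. In the group of 5 Rps12 copies 5 of the 10 possible pairs met this limit, so that group is a chain; in the other groups every pair met it. These were 3 groups of Rps12 copies with 6, 5 and 3 members, 3 copies of Rpl35a (Rpl35a-ps3, -ps4 and -ps6), Rpl10-ps1 with Rpl10-ps5, and Rps19-ps1 with Rps19-ps2, which both lie inside Tcra. Rps12-ps13 (chrX:125674820-125675246) and Rps12-ps14 (chrX:125857670-125858096) had equal counts in all 13 libraries. Their levels were 9.67, 8.12 and 8.95 CPM in GV WT and 0.298, 0.345 and 0.254 CPM in MII WT for each. Such copies are not separate observations, and the counts of copies above include them. When each parent and its named copies were added into 1 row, 188 copies belonged to a family sum that was lower in WT, and 195 in Null. Here the call of a family counts once for each of its copies. The sums also hold the parents, so these counts are not separate support.

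**Figure D4:**
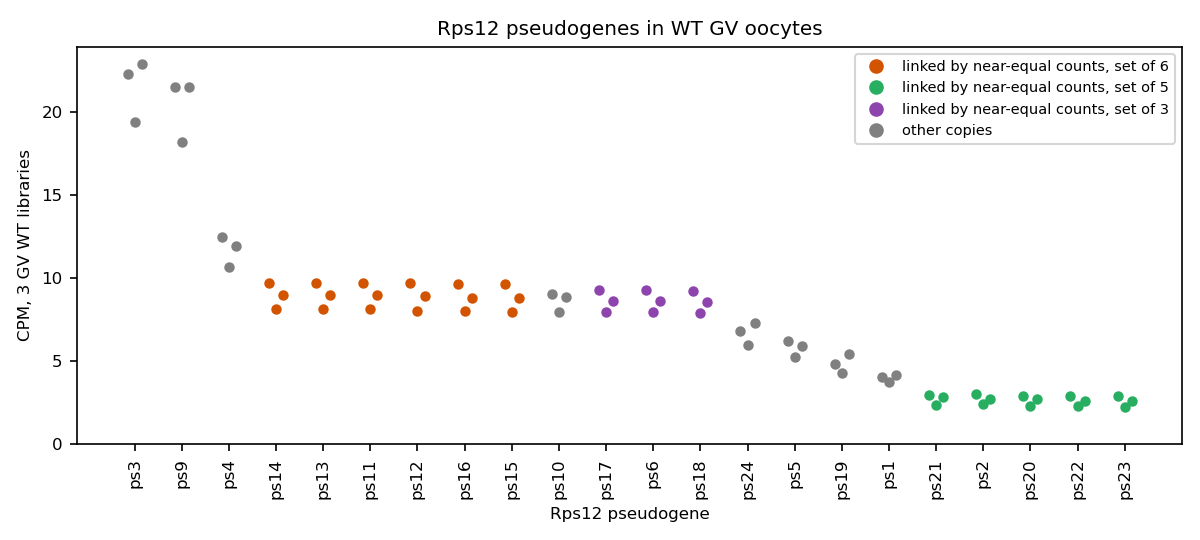
Level in CPM of the 22 Rps12 pseudogenes in the 3 GV WT libraries (points), ordered by mean. Colours mark the sets of 6, 5 and 3 copies linked by near-equal counts, of which the set of 5 is a chain with 5 of its 10 pairs within the limit; Rps12-ps3 has 19.4 to 22.9 CPM and Rps12-ps23 2.23 to 2.89 CPM.

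Maturation in Null gave the same account. Lower in MII were 183 of 197 copies and 0 were higher, with 26.9% of all genes called lower and 22.1% higher (49% in all). The median was -2.34, against -0.05 over all genes; among the 120 copies with counts everywhere, 112 were lower. Lower in both genotypes were 176 copies, in WT alone 1 and in Null alone 7. WT and Null share no library in these comparisons, but both were fitted in 1 model with a shared estimate of the spread. The largest falls included Rps12-ps23, Rps12-ps20 and Rps12-ps22, at -5.31, -5.21 and -5.18 on the log2 scale (adjusted p = 3e-10, 5.49e-10 and 6.15e-10). These Rps12 copies belong to the chain with near-equal counts and are not separate observations. Rps12-ps23 (chrX:123735802-123736225) had 2.95, 2.88 and 2.78 CPM in GV Null and 0.105, 0.0700, 0.0636 and 0.0311 CPM in MII Null. In MII Null replicates 2, 3 and 4 it was below the detection limits of 0.0972, 0.0862 and 0.0892 CPM. Rplp1-ps1, with 61 counts in GV Null and 0 in MII Null, was at least 22.99-fold lower.

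The Rps13 copies and Rpl39-ps fell in Null as well, but less evenly. Rps13-ps1 had 42.8, 47.7 and 54.1 CPM in GV Null and 0.682, 0.385, 0.191 and 3.76 CPM in MII Null, a log2 fold change of -5.25 (SE 0.60, adjusted p = 5.28e-05). The last value, from replicate 4, stands alone, and without that library the log2 fold change was -6.80. Rpl39-ps had 38.5, 40.2 and 48.2 CPM and then 0.394, 0.245, 0.191 and 3.64 CPM, giving -5.24 (adjusted p = 0.000113) with replicate 4 and -7.22 without it. For Rps13-ps2, -ps4 and -ps5 the values were -5.27, -5.29 and -5.20 with it and -6.84, -6.87 and -6.64 without it. The parents showed the same library: Rps13 had 0.667 to 1.76 CPM in the other 3 and 8.98 CPM in replicate 4, and Rpl39 had 0.604 to 1.81 and 10.5 CPM. Replicate 4 was the highest MII Null library for 86 of the 198 copies, and more than 2 times the next for 27. Like counts over all genes are not given here, so these are not a result about the copies. Summed over the 198, replicate 1 was higher, at 1183 CPM against 1022 CPM in replicate 4. Replicate 4 also had 1.31 CPM of the granulosa cell gene Inha and 5.80 CPM of Vcan. Replicates 1 to 3 had 0 to 0.12 and 0.06 to 0.20 CPM. All 23 markers summed to 130 CPM in replicate 4 and to 94.7 to 113 CPM in the others, mostly from Nr5a2 and Cyp19a1. Not every marker was raised in replicate 4. Cyp19a1 had 26.7 CPM there against 27.5 to 30.5 CPM in the others, and Nr5a2 had 73.2 CPM against 53.0 to 76.4 CPM. The part of those cells in the result was not tested.

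Genotype in GV oocytes, Null against WT, asks what losing Sirena1 did before maturation. By edgeR's quasi-likelihood test 0 of 197 pseudogenes passed, and 0 passed by DESeq2; 0.0546% of all genes (11) were called. At an unadjusted p under 0.05 there were 4 (among all genes, 6.66%), and the smallest adjusted p was 0.613. The fitted log2 fold change was positive for 178 copies and negative for 19, with a median of 0.15 against 0.02 over all genes. In 25 of the 198 copies all Null libraries lay above all WT libraries (among all genes, 6.83%), and in 2 below (among all genes, 5.93%). Without GV Null replicates 2 and 3, the pools high in cumulus and granulosa markers, the median was 0.04. Replicate 1 was the lowest of the GV Null libraries for 137 of the 198 copies. The like count over all genes is not given here, and copies of the same parent can share reads. That count is thus not a result about the copies. Among the parents 54 of 55 were positive, with a median of 0.19, and 0 were called.

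The smallest p-values belonged to the Rpl9 copies and Rpl31-ps18. Rpl9 is a large subunit gene. Rpl9-ps7 (chr2:70458928-70459680) had 1.21, 1.35 and 1.10 CPM in GV WT and 1.40, 6.45 and 3.05 CPM in GV Null, a log2 fold change of 1.57 (SE 0.47, unadjusted p = 0.00423, adjusted p = 0.613). Rpl9-ps4 (chr13:72454661-72455378) had 1.39, 1.68 and 1.40 CPM and 1.65, 7.78 and 3.49 CPM, a log2 fold change of 1.53 (SE 0.50, adjusted p = 0.67). For Rpl9-ps6 (chr19:32465872-32466575) the values were 1.93, 2.11 and 1.65 CPM and 1.92, 8.75 and 4.40 CPM, a log2 fold change of 1.41 (SE 0.62, adjusted p = 0.731). Rpl9 had 4.97, 4.16 and 4.17 CPM in GV WT and 4.30, 22.3 and 10.9 CPM in GV Null. In all 4 genes replicate 2 was highest, replicate 3 next and replicate 1 near WT, the same order as the cumulus and granulosa markers; the part of those cells in the result was not tested. Without replicate 1, Rpl9-ps7 and Rpl9-ps4 passed (1.95 and 1.92, adjusted p = 0.0369 and 0.0494). Without replicate 2 the 3 copies had 0.86, 0.78 and 0.73, and without replicates 2 and 3 they had 0.20, 0.14 and 0.02. Rpl31-ps18 had 0.125 to 0.349 CPM in GV WT and 0.367 to 0.770 CPM in GV Null, a log2 fold change of 1.34 (SE 0.61, adjusted p = 0.729).

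**Figure D5:**
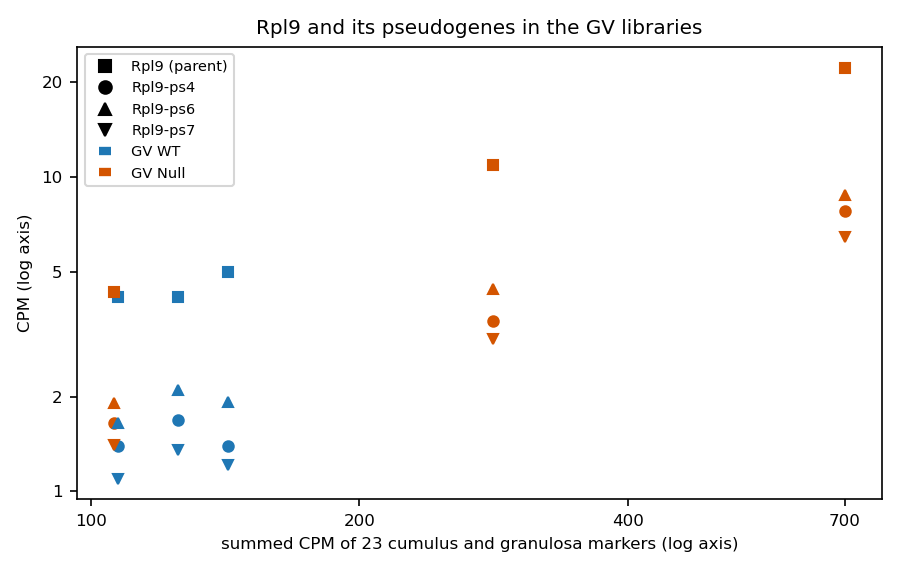
Level in CPM of Rpl9 and its copies Rpl9-ps4, -ps6 and -ps7 against the summed CPM of 23 cumulus and granulosa markers in the 6 GV libraries, both on log axes. GV Null replicates 2 and 3, at 701 and 283 CPM of markers, carry the high values, and GV Null replicate 1 (106 CPM) lies with the 3 GV WT libraries.

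Genotype in MII eggs also gave 0 calls among 197 pseudogenes by edgeR and 0 by DESeq2, with 0.0546% of all genes called. At an unadjusted p under 0.05 there were 17 (among all genes, 6.35%), and the smallest adjusted p was 0.571. Positive were 151 copies and negative 46, with a median of 0.21 against 0.01 over all genes. All Null libraries lay above all WT libraries in 7 of the 198 copies (among all genes, 2.94%) and below in 1 (among all genes, 3.13%). The median was 0.15 without MII Null replicate 4 and 0.11 without MII Null replicate 1. Rps12-ps9 (chr8:123206531-123207036) had 0.629, 0.689 and 0.667 CPM in MII WT and 1.10, 1.12, 0.763 and 1.27 CPM in MII Null. Its groups do not overlap, and the log2 fold change of 0.69 (SE 0.21) had an adjusted p of 0.571. Rpl27-ps1 had 0.629 to 0.984 CPM and 1.02 to 1.62 CPM (0.70, adjusted p = 0.61), and Rps12-ps10 had 0.286 to 0.379 CPM and 0.350 to 0.682 CPM (0.70, adjusted p = 0.721). Rpl38-ps2 had 0.127 to 0.276 CPM and 0.280 to 1.18 CPM (1.45, adjusted p = 0.686); without MII Null replicate 4 its value was 0.86.

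The difference of the genotype effect between the stages was tested with an interaction contrast. It gave 0 calls among 197 pseudogenes by edgeR and 0 by DESeq2, with 0.00496% of all genes (1) called, and 2 copies had an unadjusted p under 0.05 (among all genes, 3.38%). The smallest adjusted p was 0.999. The copies lowest in p were Rpl31-ps18 (-2.13, SE 0.85), Rps12-ps9 (0.57, SE 0.25), Rplp0-ps1 (-1.02, SE 0.49) and Rpl27-ps1 (0.58, SE 0.29), each with an adjusted p of 0.999 in edgeR's quasi-likelihood test. Rplp0, the parent of Rplp0-ps1, encodes the base of the ribosomal stalk. Rplp0-ps1 (chr3:93278070-93279153, inside Flg) had 0.572 to 0.689 CPM in MII WT and 0.254 to 0.528 CPM in MII Null, below WT in all 4 libraries. Its GV values were 0.576 to 0.823 CPM in WT and 0.760 to 1.04 CPM in Null, which overlap.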

How the data were processed

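Pools of 25 oocytes or eggs, with 0.2 pg of Renilla luciferase RNA added, were read as 65 bp single ends (Ovation RNA-Seq V2), per the labels' protocols. The authors deposited raw counts per gene of Ensembl release 93; the submitters' processing notes name STAR 2.5.3a, bedtools 2.26.0 and the builds GRCm38.p6 and mm10. The tool that counted reads, with its strand and multi-mapping settings, is not given in the sources used here. No spike-in row was used. Symbols were found for 54079 of 54232 genes.

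Counts of all 13 libraries were fitted in 1 model of 4 groups with edgeR 4.0.16 in R 4.3.3 (TMM factors, filterByExpr by group, robust glmQLFit, two-sided glmQLFTest) in 5 comparisons. Adjusted p-values are Benjamini-Hochberg values over the 20143 genes tested, with a threshold of 0.05. The filter left 197 of 198 pseudogenes; Rpl36-ps1 was not tested. The script was tested on simulated counts. Standard errors (SE) come from the fold change and its F statistic. Intervals for ratios of few counts are 95% exact binomial ones (Clopper-Pearson). DESeq2 1.42.0, other scalings and filters, a minimum of 1.5-fold, family sums and left-out libraries were alternatives.

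The pseudogenes, lists and tests were chosen with earlier results of these data known. By rule, values are given for the 6 copies with the highest mean CPM, up to 8 called copies per direction with the largest fold change and at least 2 CPM in each maturation comparison, the 4 pairs at each end of the copy minus parent difference, the 4 smallest p-values in comparisons without calls, and families; copies named outside it were chosen after their values were seen.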

Additional observations from a re-analysis of the deposited data

Results flagged for a closer look

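In a group of 4 libraries a value was marked when its gap to the nearest other library exceeded 0.829 of the group's range, which chance does in about 1 of 20 groups. Of 32 named copies tested in MII Null, 10 were marked, all through replicate 4. That library had 4.1 CPM of Rps13-ps2, 3.76 of Rps13-ps1, 3.01 of Rps13-ps4 and 2.46 of Rps13-ps5, where the other 3 averaged 0.448, 0.419, 0.319 and 0.302 CPM. It had 3.64 CPM of Rpl39-ps against a mean of 0.276, 0.963 CPM of Rps27a-ps2 against 0.136 and 0.777 CPM of Rpl7-ps7 against 0.115. For the Rpl9 copies it had 0.466 CPM of Rpl9-ps7, 0.590 of Rpl9-ps4 and 0.963 of Rpl9-ps6, where the other 3 averaged 0.115, 0.124 and 0.124 CPM. The copies of one parent can share reads, so these marks are not independent.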

How the results depend on the processing

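The counts of lower pseudogenes ranged from 153 (minimum of 1.5-fold) to 188 (family sums) in WT, around 177, and from 160 (without GV Null replicates 2 and 3) to 195 (family sums) in Null, around 183; none was called higher under any setting. In the family sums the call of a family counts once per copy, so 188 and 195 are not counts of separate tests. Leaving out single libraries gave 168 to 175 in WT and 179 to 187 in Null. Leaving out GV Null replicates 2 and 3 and MII Null replicate 4 together, chosen after seeing the data, gave 160. Of the 181 calls from a fit of only the WT groups 177 were shared with the 4-group fit. Without a filter on low counts the genotype comparisons called 3 copies in GV, 9 in MII and 5 for the stage difference. Leaving out single libraries gave 0 to 2 calls in GV. The share of all genes called under these settings is not given here, so these counts are not a result about the copies. The cause was not tested. Taking all named pseudogenes moved their share of counts to 42.7% in GV WT, 42.8% in GV Null and 45.8% in MII Null. The one reversed value was that of Rpl19-ps3 in WT, -0.0586 without MII WT replicate 3; leaving out other single libraries gave up to 0.317. Without MII WT replicate 2, Rps19-ps7 had no count left in MII WT. Rpl7a-ps11 and the 4 Rpl10 copies called in WT did not pass a minimum of 1.5-fold. With the replicate number as a block, 176 copies were called in WT, 182 in Null and 0 in each genotype comparison and the stage difference. Same-numbered libraries did not deviate together (correlations of -0.242 to 0.159), so the numbers were not taken as a pairing. In that block MII Null replicate 4 has no partner, and Rpl39-ps in Null had -7.20 instead of -5.24. Depth limits copies with few MII counts: 1 copy had 0 and 7 had 1 to 3 counts over MII WT. With the first at its bound, a 10.2-fold fall, the median stayed at -2.36. The median could not have moved, since that fall still lies beyond it. The other 7 kept their fitted values.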
